A study of Mus musculus with 8 samples.

Results

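Motile cilia genes were followed in RNA-seq read counts of mouse hippocampus, with and without the scaffold protein SAP97, which is encoded by Dlg1. The set held 40 genes, picked by symbol: axonemal dyneins, radial spoke and central apparatus genes, tektins, ciliary transcription factors and other genes of ciliated cells. All 40 were among the 25834 genes of the table, 38 under the given symbol and 2 (Dnai1 and Dnai2) under the older symbols Dnaic1 and Dnaic2. All 40 also passed the filter on low counts, as did 16251 genes in all.

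The study compared 4 control with 4 SAP97-cKO male mice, with 1 library per animal from the hippocampus of 1 hemisphere. SAP97-cKO mice carried Nestin-cre+/- on an SAP97fl/fl background. Controls were littermates that were Nestin-cre+/-, SAP97fl/fl or wild type, and neither the genotype of each control library nor the age of the sequenced mice was given in the sources used here. The Nestin promoter drives Cre in neural progenitors, so cells of other origin in the tissue keep the floxed gene.

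Motile cilia beat by means of dynein motors that slide the microtubules of the axoneme, while radial spokes and the central apparatus set the rhythm of the beat. In the brain the cells that carry them include ependymal cells, which line the ventricles and move cerebrospinal fluid. FOXJ1 together with RFX factors switches the genes of motile cilia on. Which cells of the dissection, choroid plexus among them, supplied the reads of these genes was not tested. The hippocampus borders the lateral ventricle. Choroid plexus, the tissue in the ventricle that secretes cerebrospinal fluid, makes transthyretin (Ttr) in very large amounts, and Ttr was used here as a gauge of how much ventricular tissue came with each dissection.

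Library totals lay between 37388177 and 37426572 counts, so 1 CPM (read counts scaled by library size and TMM factor) stood for about 37.4 reads, and every CPM below is on this scale. Dlg1 was at 110.4, 122, 107 and 125 CPM in controls 1 to 4 and at 62.9, 82.0, 57.3 and 53.7 CPM in SAP97-cKO replicates 1 to 4. The groups did not overlap, and Dlg1 was lower in SAP97-cKO by a log2 fold change of -0.86 (SE 0.12, adjusted p = 0.143), past the threshold of FDR 0.25 that the study used. Across all genes tested, 48 passed this threshold, 46 of them lower in SAP97-cKO. That count was 0 without control 2, without SAP97-cKO 3 or without SAP97-cKO 4, where the adjusted p of Dlg1 was 0.424, 0.524 and 0.346, and it was 1675 without control 1 and 711 without SAP97-cKO 1.

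Ttr varied 108-fold over the 8 libraries. It stood at 1072, 6211, 3462 and 126 CPM in controls 1 to 4 and at 489, 2131, 1222 and 57.7 CPM in SAP97-cKO replicates 1 to 4. Both genotypes thus had libraries rich and poor in Ttr, and their ranges overlapped widely. The mean of the SAP97-cKO libraries was 0.359 times that of the controls, a difference that did not pass an exact two-sided permutation test (p = 0.314, where 4 against 4 can reach 0.0286), nor the test across all genes (log2 fold change -1.48, SE 1.07, adjusted p = 0.583). Without control 2 the log2 fold change of Ttr was -0.67, and without SAP97-cKO 2 it was -2.20.

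For each member, the level was set against its own geometric mean over the 8 libraries, from log2 CPM with 0.5 added to each count. The median member was at 0.799, 1.41, 1.61 and 0.929 times its mean in controls 1 to 4, and at 0.876, 1.10, 0.894 and 0.853 times its mean in SAP97-cKO replicates 1 to 4. Controls 2 and 3, the pair highest in Ttr, were therefore high in motile cilia genes, and controls 1 and 4 were within the range of the SAP97-cKO libraries or just below it. Of the 40 members, 33 (82.5%) had their highest value in control 2 or control 3, against 23.1% of all genes tested. The members also varied more between animals of a genotype than most genes did. Their median SD of log2 level was 0.50 among controls and 0.30 among SAP97-cKO libraries, beside 0.18 and 0.14 for all genes tested. The median CPM of the members was also well below that of all genes tested. The SDs were not compared among genes of like CPM, so the part of this lower level in the wider spread was not tested. In bulk tissue, fewer ciliated cells and less RNA per ciliated cell cannot be told apart.

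**Figure D1:**
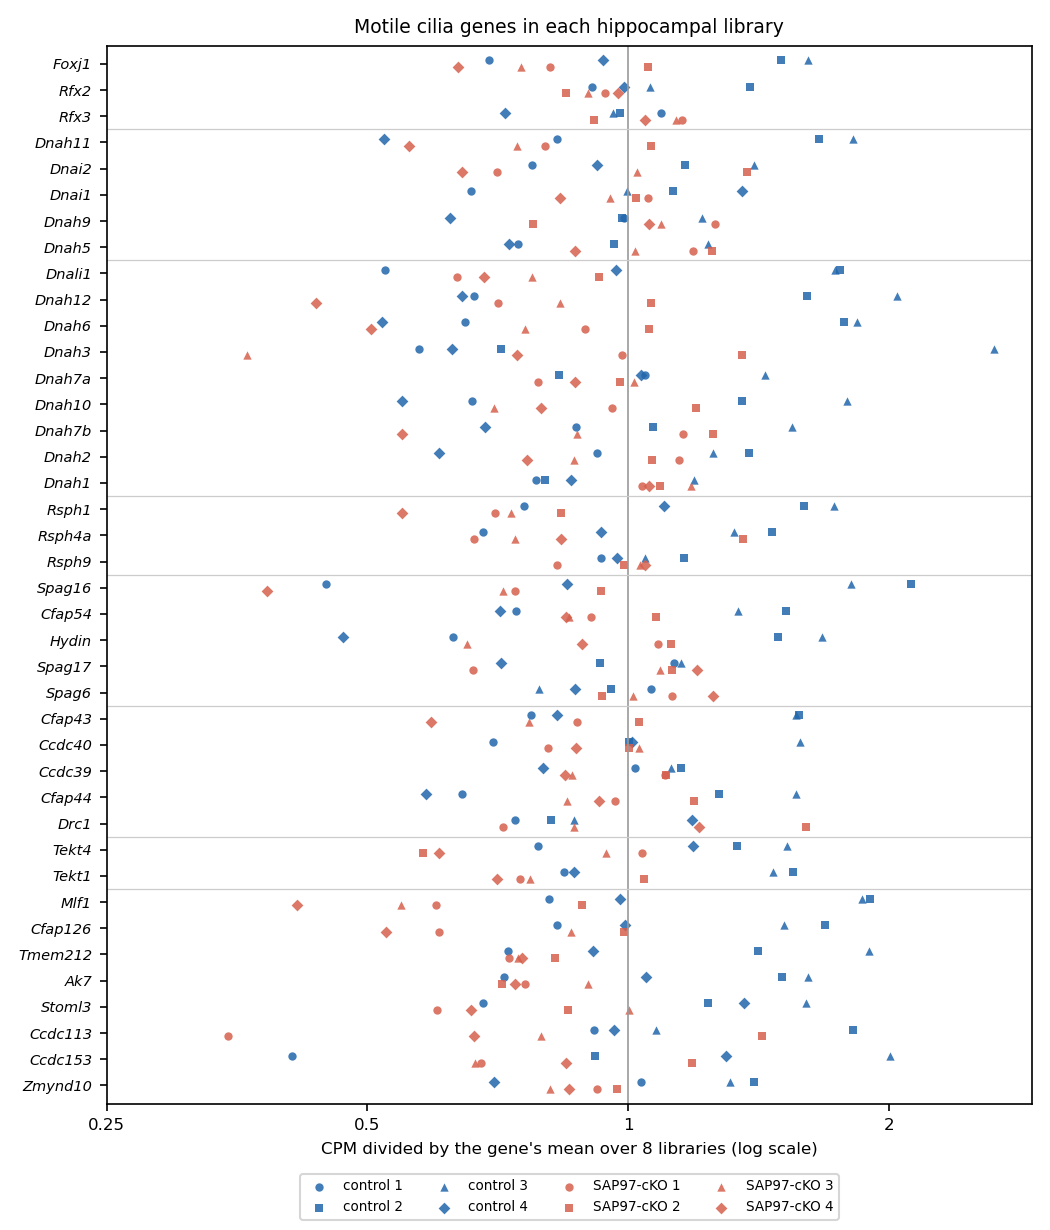
Level of each of the 40 genes in each library, as CPM divided by the gene's arithmetic mean over the 8 libraries (log axis). Blue marks the 4 control and red the 4 SAP97-cKO libraries, the marker shape gives the replicate, and grey lines part the role groups. The blue squares and triangles, controls 2 and 3, lie to the right for most genes, with Rfx3, Spag6, Drc1 and Dnah9 among the exceptions.

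No motile cilia gene passed the threshold between genotypes in edgeR's quasi-likelihood test, where 0.295% of all genes tested did. At an unadjusted p under 0.05, 7 of the 40 were lower in SAP97-cKO, where 7.01% of all genes were, and 0 were higher, where 4.73% of all genes were. Fold changes were below 0 for 33 of the 40 (82.5%) and for 52.8% of all genes. Their median log2 fold change was -0.27 with a range from -1.18 to 0.29, beside a median of -0.01 for all genes. None of the 40 separated the 4 control from the 4 SAP97-cKO libraries without overlap, which 6.25% of all genes did. Limma-voom also called 0 members, with 4 at an unadjusted p under 0.05, where 11.5% of all genes were. DESeq2 called 4 members, namely Mlf1, Rsph1, Ak7 and Cfap126, where it called 6.36% of all genes, and 10 members were at an unadjusted p under 0.05, where 12.6% of all genes were. Without control 1 the count in edgeR was 12, where 10.2% of all genes passed, and the median log2 fold change was -0.40. Without control 3 the median was -0.10.

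In a model that also held Ttr, the median log2 fold change of the members was -0.13, 27 of the 40 were below 0 and 0 were called, where 0.197% of all genes were. The 7 genes with fold changes above 0 before this adjustment were Dnah1, Rfx3, Dnah5, Spag6, Drc1, Dnah9 and Spag17.

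**Figure D2:**
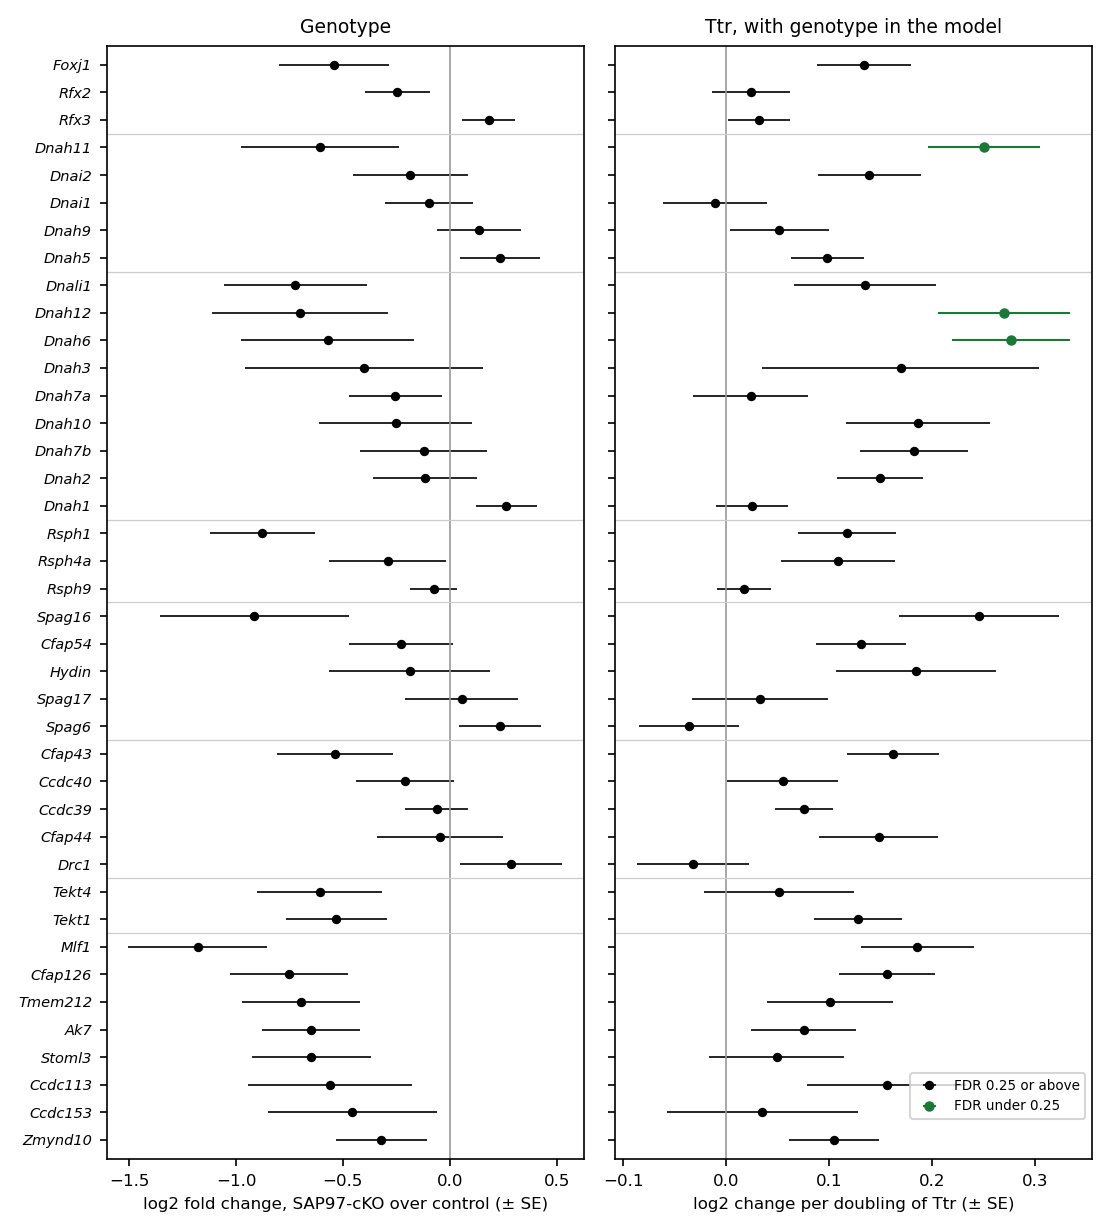
Left, log2 fold change of SAP97-cKO over control; right, log2 change per doubling of Ttr with genotype in the model; bars are standard errors of the fit and grey lines part the role groups. Most points lie left of 0 for genotype and right of 0 for Ttr, and the 3 genes past the FDR of 0.25 (green) are Dnah6, Dnah11 and Dnah12.

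In the second comparison each gene was tested for a change with Ttr among libraries of the same genotype, and its slope is the log2 change of the gene per doubling of Ttr. Dnah6, Dnah11 and Dnah12 rose with Ttr, which makes 3 of the 40 members, where 1.53% of all genes tested rose; 0 members fell, where 0.0923% of all genes fell. At an unadjusted p under 0.05, 20 of the 40 had a rising slope, where 5.74% of all genes had one. Slopes were above 0 for 37 of the 40 members (92.5%) and for 53.3% of all genes. The median slope was 0.113 among the members and 0.003 over all genes. The 3 calls depended on single libraries: 0 members passed without control 2 or without control 4, where 0.535% and 0.773% of all genes did, and 9 passed without control 1, where 1.85% of all genes did. With the lowest-Ttr library of each genotype left out 1 member passed, where 0.69% of all genes did, and with the highest-Ttr library of each left out 0 passed, where 0.425% of all genes did.

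**Figure D3:**
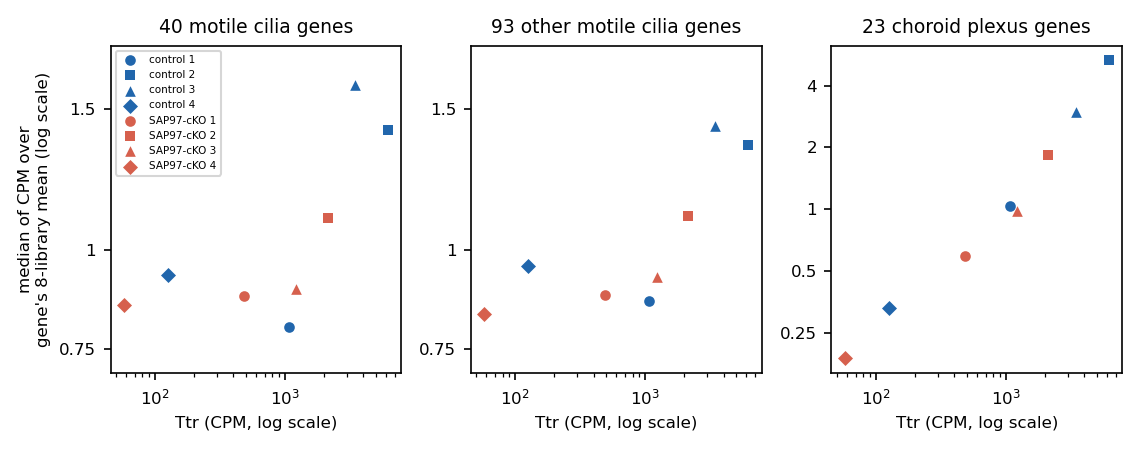
Median level of 3 gene lists in each library, against the Ttr level of that library (both axes log). Levels are relative to each gene's 8-library geometric mean, and the vertical axis of the right panel spans a wider range. The 3 libraries highest in Ttr are the 3 highest in the members, whereas the other 5 libraries lie between 0.799 and 0.929 at any level of Ttr; the choroid plexus genes span a far wider range and rise with Ttr from its lowest to its highest library.

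The relation was not an even one across the range of Ttr. Control 2, control 3 and SAP97-cKO 2 were the highest in Ttr and also in the median member. Among the other 5 libraries Ttr ranged from 57.7 to 1222 CPM while the median member stayed between 0.799 and 0.929 times its geometric mean. Summed over the 39 members other than Rfx3, which alone made up much of the total, the level was 148, 239.6, 260.4 and 162 CPM in controls 1 to 4 and 169, 201, 165 and 157 CPM in SAP97-cKO replicates 1 to 4.

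Gene positions are those of GENCODE M21 on GRCm38. Among the transcription factors, Foxj1 (ENSMUSG00000034227, chr11:116330704-116335399, minus strand), the master regulator of the motile cilia programme, was at 10.7, 23.3, 24.985 and 14.5 CPM in controls 1 to 4. In SAP97-cKO replicates 1 to 4 it was at 12.6, 16.3, 11.65 and 9.85 CPM. Controls 2 and 3 stood above all SAP97-cKO libraries, and controls 1 and 4 fell among them. The means were 18.4 ± 6.88 and 12.6 ± 2.72 CPM (SD, n = 4 each), a log2 fold change of -0.54 (SE 0.26, adjusted p = 0.435). An exact two-sided permutation test gave p = 0.229 for the same comparison. The Ttr slope of Foxj1 was 0.134 (SE 0.046, adjusted p = 0.441).

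Rfx3, a factor that binds the X-box of ciliary promoters, was the most abundant member per kilobase of exon, at a mean of 10.9 CPM per kb. It was at 131, 118, 115 and 86.6 CPM in controls 1 to 4 and at 139, 109.8, 136 and 126 CPM in SAP97-cKO replicates 1 to 4. The ranges overlapped, the log2 fold change was 0.18 (SE 0.12, adjusted p = 0.560), and control 4 was the lowest library. Its slope on Ttr was 0.03 (SE 0.03), which is less steep than that of Foxj1, although the difference between the slopes was not tested. Rfx2, a related factor, was between 3.11 and 5.09 CPM with a log2 fold change of -0.25.

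The outer arm dyneins drive the beat frequency. Dnah9, the heavy chain with the highest counts, was at 20.7, 20.6, 25.5 and 13.0 CPM in controls 1 to 4 and at 26.4, 16.2, 22.9 and 22.1 CPM in SAP97-cKO replicates 1 to 4. Its libraries did not sort by genotype or by Ttr, and its log2 fold change of 0.13 (SE 0.20, adjusted p = 0.788) was -0.02 without control 4. Dnah11 (ENSMUSG00000018581, chr12:117877982-118199043, minus strand), another heavy chain of the outer arm, was at 2.14, 4.29, 4.70 and 1.35 CPM in controls and at 2.07, 2.74, 1.92 and 1.44 CPM in SAP97-cKO, in replicate order. It was highest in controls 2 and 3 and lowest in replicate 4 of both groups. Dnah11 rose by a slope of 0.2505 (SE 0.055, adjusted p = 0.121), which lost the call without control 2 (adjusted p = 0.434) and without control 4 (0.538). Its log2 fold change between genotypes was -0.61 (SE 0.37, adjusted p = 0.523), and -0.18 with Ttr in the model. Dnah5 and the intermediate chains Dnai1 and Dnai2 had log2 fold changes between -0.18 and 0.24.

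The inner arm dyneins shape the bend of the cilium, and all 9 of them had slopes on Ttr above 0 and their highest value in control 2 or control 3. Dnah6 (ENSMUSG00000052861, chr6:73017606-73221651, minus strand) was at 3.88, 10.6, 11.012 and 3.11 CPM in controls 1 to 4 and at 5.34, 6.34, 4.55 and 3.03 CPM in SAP97-cKO replicates 1 to 4. Controls 2 and 3 were far above the rest, and replicate 4 was the lowest library of each genotype. Dnah6 rose with Ttr by 0.277 per doubling (SE 0.057, adjusted p = 0.101), a call lost without control 2 (adjusted p = 0.388) and without control 4 (0.478). Between genotypes its log2 fold change was -0.57 (SE 0.40, adjusted p = 0.572), and -0.08 with Ttr in the model.

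Dnah12 (ENSMUSG00000021879, chr14:26693274-26891703, plus strand), also of the inner arm, was at 1.10, 2.66, 3.38 and 1.06 CPM in controls 1 to 4 and at 1.17, 1.76, 1.38 and 0.722 CPM in SAP97-cKO replicates 1 to 4. The same libraries were high as for Dnah6. Its slope was 0.270 (SE 0.064, adjusted p = 0.168). That call was lost without control 2 (adjusted p = 0.465), without control 4 (0.478) or without SAP97-cKO 2, 3 or 4 (0.294, 0.268 and 0.310). Between genotypes the log2 fold change was -0.70 (SE 0.41, adjusted p = 0.508). Dnah1, the inner arm chain with the most reads, showed another order. It was at 5.67, 5.81, 8.62 and 6.23 CPM in controls and at 7.52, 7.88, 8.56 and 7.66 CPM in SAP97-cKO, with a log2 fold change of 0.26 (SE 0.14, adjusted p = 0.479) and a slope of 0.03 (SE 0.04). Only control 3 reached the level of the SAP97-cKO libraries. The remaining 6 (Dnah2, Dnah3, Dnah7a, Dnah7b, Dnah10 and Dnali1) had log2 fold changes from -0.72 to -0.11 and slopes from 0.024 to 0.186. Dnah7a and Dnah7b are close paralogs on chromosome 1, so their split of reads is uncertain.

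The promoter of Dnah6 is shown because this gene had the smallest p for Ttr among the members. It comes from RefSeq on GRCm38.p6, minus strand, chr6:73221582-73221881, and holds no match to the motifs searched for further on. It does hold the letters gttgctaagcaac, a looser X-box-like pair that the search did not count.
Dnah6: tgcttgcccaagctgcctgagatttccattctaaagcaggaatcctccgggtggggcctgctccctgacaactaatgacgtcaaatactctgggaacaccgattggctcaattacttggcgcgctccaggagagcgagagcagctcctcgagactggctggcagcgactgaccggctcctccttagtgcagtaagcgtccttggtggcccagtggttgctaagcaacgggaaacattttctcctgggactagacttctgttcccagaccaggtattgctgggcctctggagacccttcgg

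Radial spokes carry signals from the central apparatus to the dynein arms. Rsph9, a spoke head protein, had the highest level of the 3 per kilobase of exon, at a mean of 6.72 CPM per kb. It was at 10.01, 12.5, 11.2 and 10.4 CPM in controls and at 8.90, 10.6, 11.1 and 11.2 CPM in SAP97-cKO, in replicate order. All 8 libraries lay within a factor of 1.40, and the log2 fold change was -0.08 (SE 0.11, adjusted p = 0.789). Rsph1, of the same spoke head, was at 4.15, 8.74, 9.45 and 6.02 CPM in controls 1 to 4 and at 3.84, 4.58, 4.01 and 3.00 CPM in SAP97-cKO replicates 1 to 4. Controls 2, 3 and 4 were above all SAP97-cKO libraries and control 1 was inside their range. The log2 fold change of Rsph1 was -0.88 (SE 0.25, adjusted p = 0.330 in edgeR and 0.0522 in DESeq2). The genotype value with Ttr in the model was -0.71. Rsph4a had a log2 fold change of -0.29 (SE 0.27).

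In the central apparatus, Cfap54 was at 4.33, 8.87, 7.82 and 4.15 CPM in controls 1 to 4 and at 5.28, 6.28, 4.985 and 4.94 CPM in SAP97-cKO replicates 1 to 4. Controls 2 and 3 were above all SAP97-cKO libraries, and controls 1 and 4 were below all of them. The log2 fold change was -0.23 (SE 0.24, adjusted p = 0.701) and the slope on Ttr was 0.131 (SE 0.044, adjusted p = 0.434). Hydin and Spag16 showed the same 2 high control libraries, and their ranges were 1.56 to 5.56 and 1.03 to 5.70 CPM. Spag6 and Spag17 were low, at 0.626 to 1.61 CPM, with log2 fold changes of 0.23 and 0.05. Spag6 has a close paralog, so its counts are uncertain.

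Of the 5 genes for dynein regulation and docking along the axoneme, 4 had fold changes below 0 and none was called. Drc1, of the nexin-dynein regulatory complex, was at 10.9, 12.05, 12.8 and 17.5 CPM in controls and at 10.6, 23.7, 12.8 and 17.8 CPM in SAP97-cKO, in replicate order. Its highest library was SAP97-cKO 2, and the log2 fold change was 0.29 (SE 0.24, adjusted p = 0.631). Without the highest-Ttr library of each genotype that value was -0.002. Ccdc39 and Ccdc40, the molecular ruler of the axoneme, had log2 fold changes of -0.06 and -0.21, and Cfap43 and Cfap44 of -0.54 and -0.05. An exon of the protein-coding gene Ttc14 on the other strand covers 16.9% of the exon length of Ccdc39, and since the sources used here do not say whether counting used strand, reads from such a pair cannot be told apart.

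Of the tektins, which run along the axonemal microtubules, Tekt1 was at 2.76, 5.06, 4.80 and 2.83 CPM in controls 1 to 4 and at 2.45, 3.41, 2.52 and 2.30 CPM in SAP97-cKO replicates 1 to 4. Again controls 2 and 3 stood apart, and the other 2 controls were within the SAP97-cKO range. The log2 fold change was -0.53 (SE 0.24, adjusted p = 0.421). Tekt4 was lower in counts, with 276 reads in all libraries together, and its log2 fold change was -0.61 (SE 0.29).

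The last 8 members are genes for ciliary assembly and other genes of ciliated cells, and all 8 had fold changes below 0, with a median of -0.65. Of the 7 members with an unadjusted p under 0.05, 5 were in this group: Mlf1, Ak7, Cfap126, Tmem212 and Stoml3. Ak7, an adenylate kinase of cilia, had the most reads of the 8. It was at 4.20, 8.79, 9.43 and 6.13 CPM in controls 1 to 4 and at 4.44, 4.18, 5.26 and 4.33 CPM in SAP97-cKO replicates 1 to 4. Controls 2, 3 and 4 were above all SAP97-cKO libraries, while control 1 was among the lowest. The log2 fold change was -0.65 (SE 0.23, adjusted p = 0.365).

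Mlf1 (ENSMUSG00000048416, chr3:67374097-67400003, plus strand), known from a fusion in myeloid leukaemia and expressed in ciliated cells, had the lowest fold change of the 40. It was at 2.17, 5.09, 4.99 and 2.62 CPM in controls and at 1.61, 2.37, 1.46 and 1.11 CPM in SAP97-cKO, in replicate order. Only SAP97-cKO 2 reached into the control range. The log2 fold change was -1.18 (SE 0.32, adjusted p = 0.317 in edgeR and 0.0434 in DESeq2), and -0.92 with Ttr in the model (SE 0.24, adjusted p = 0.357). Cfap126, which helps to set the polarity of motile cilia, had a log2 fold change of -0.75 (SE 0.27). For Tmem212, an ependymal marker, it was -0.70 (SE 0.28), and for Stoml3, a stomatin family protein, -0.65 (SE 0.28). The others, Ccdc113, Ccdc153 and Zmynd10, lay between -0.56 and -0.32.

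**Figure D4:**
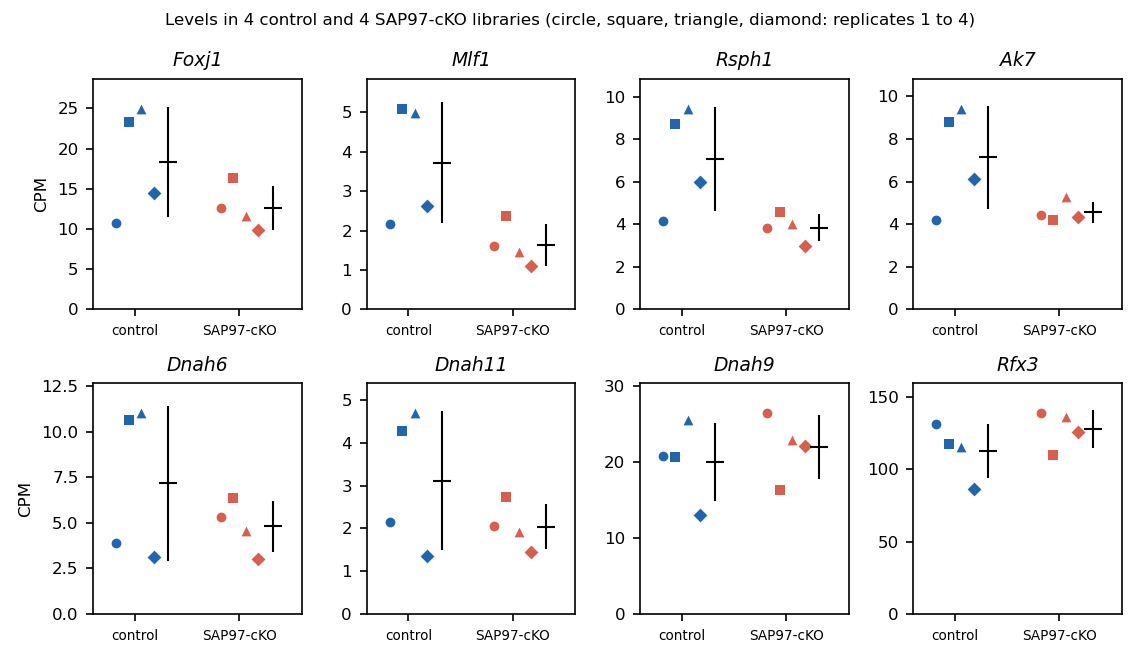
CPM of 8 members in the 4 control (blue) and 4 SAP97-cKO (red) libraries, with the mean and SD of each group as black bars (each vertical axis starts at 0). Controls 2 and 3 are the highest libraries of Foxj1, Mlf1, Rsph1, Ak7, Dnah6 and Dnah11, and Dnah9 and Rfx3 do not follow that order.

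RefSeq promoters on GRCm38.p6, from 250 bases before to 50 after the start site, were searched on both strands for the X-box half-site GTTGCC and the forkhead core TGTTTAC. A promoter was found for 35 of the 40 members, and not for Foxj1, Dnah3, Rsph1, Rsph4a or Cfap54. The 35 genes had 38 promoters, and a gene was counted if any of its promoters held the letters. The half-site letters stood in 17 of the 35 genes (48.6%) and in 14.1% of the 27025 genes of that table, and the forkhead letters in 4 of the 35 (11.4%) and in 4.05% of the table. The 4 were Mlf1, Ak7, Stoml3 and Cfap43. A full X-box was searched only as GTTNCC and GGNAAC with up to 3 bases between them. That pattern was in 0 of the 35 and in 0.936% of the table. Looser pairs, such as gttgctaGGCAAC in Dnai2, gttgctgtGGCAAC in Hydin and gttgctaagcaac in Dnah6, were not counted, so the 0 holds for this pattern only.

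The promoters below belong to members with an unadjusted p under 0.05 between genotypes that hold such letters, and capitals mark them. Cfap126 and Tmem212, also under that p, hold none of these letters, and no promoter was found for Rsph1. Mlf1 (plus strand, chr3:67373847-67374146) holds a forkhead core that begins 116 bases before the start site and a half-site that begins 105 before it. Ak7 (plus strand, chr12:105705732-105706031) and Stoml3 (plus strand, chr3:53488457-53488756) hold a forkhead core that begins 131 and 92 bases before it. Tekt1 (minus strand, chr11:72361833-72362132) holds 2 half-sites that begin 35 and 15 bases before it. Another promoter of Tekt1 (minus strand, chr11:72361247-72361546) holds none of these letters and is not shown.
Mlf1: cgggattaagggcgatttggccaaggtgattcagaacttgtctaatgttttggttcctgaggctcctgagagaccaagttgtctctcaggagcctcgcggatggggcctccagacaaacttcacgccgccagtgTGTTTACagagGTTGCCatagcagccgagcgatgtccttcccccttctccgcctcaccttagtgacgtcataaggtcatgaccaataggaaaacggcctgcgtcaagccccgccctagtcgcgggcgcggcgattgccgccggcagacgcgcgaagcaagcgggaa
Ak7: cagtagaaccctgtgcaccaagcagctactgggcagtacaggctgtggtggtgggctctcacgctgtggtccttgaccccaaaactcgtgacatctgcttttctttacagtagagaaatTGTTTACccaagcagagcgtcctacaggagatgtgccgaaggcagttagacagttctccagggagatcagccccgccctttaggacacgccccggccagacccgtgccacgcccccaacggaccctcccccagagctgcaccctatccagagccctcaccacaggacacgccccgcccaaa
Stoml3: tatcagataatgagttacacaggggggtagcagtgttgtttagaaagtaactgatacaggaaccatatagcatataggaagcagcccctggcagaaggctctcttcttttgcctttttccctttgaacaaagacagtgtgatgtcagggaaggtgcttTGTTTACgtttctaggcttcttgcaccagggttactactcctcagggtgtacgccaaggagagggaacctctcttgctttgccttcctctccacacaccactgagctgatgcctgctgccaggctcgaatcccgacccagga
Tekt1: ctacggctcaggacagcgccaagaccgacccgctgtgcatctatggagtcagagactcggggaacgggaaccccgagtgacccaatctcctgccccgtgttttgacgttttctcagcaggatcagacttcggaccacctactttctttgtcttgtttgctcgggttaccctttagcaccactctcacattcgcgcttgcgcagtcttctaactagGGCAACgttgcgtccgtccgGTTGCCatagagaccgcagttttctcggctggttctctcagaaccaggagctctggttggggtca

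A wider list of 97 other motile cilia genes, of which 93 were tested, had a median log2 fold change of -0.30 with 80 genes below 0. None was called between genotypes, where 0.295% of all genes tested were. At an unadjusted p under 0.05, 10 of the 93 were lower and 1 higher, where 7.01% and 4.73% of all genes were. Tppp3 (-0.60, SE 0.14), Cfap161 (-1.14, SE 0.32) and Lrrc6 (0.39, SE 0.14) had the smallest p. With Ttr, 13 of the 93 rose, where 1.53% of all genes did. They were led by Cfap65 (slope 0.365, SE 0.051, adjusted p = 0.0119), Drc7 (0.384, SE 0.071, adjusted p = 0.0596) and Wdr78 (0.139, SE 0.030, adjusted p = 0.114). The 52 genes of the primary cilium and intraflagellar transport had a median log2 fold change of -0.01 and a median slope of 0.011. Of these 52, 0 were called in either comparison. At an unadjusted p under 0.05, 3 of the 52 were lower and 3 higher in SAP97-cKO, and 4 rose with Ttr. The shares of all genes were 7.01%, 4.73% and 5.74%. Sstr3 (0.33), Ift80 (-0.23) and Kif17 (0.22) had the smallest p for genotype.

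Ependymal genes outside the axoneme gave a mixed picture. Of 10 such genes, 8 had a fold change below 0, with a median of -0.34, and 0 were called between genotypes. At an unadjusted p under 0.05, 4 were lower and 1 higher, where 7.01% and 4.73% of all genes were. S100a11 (-0.54, SE 0.17), Rarres2 (-0.53, SE 0.18) and Tm4sf1 (-0.39, SE 0.15) had the smallest p. Which cells of the dissection supplied the reads of these 10 genes was not tested. Nek5 rose with Ttr (slope 0.300, SE 0.073, adjusted p = 0.184). Mia, another ependymal marker, was low at 0.13 to 0.80 CPM, and the summed level of the 10 was 111 to 134 CPM in controls and 117 to 128 CPM in SAP97-cKO.

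Among markers of other cells, the 24 choroid plexus genes all had fold changes below 0, with a median log2 fold change of -1.44. None of the 24 was called between genotypes. At an unadjusted p under 0.05, 3 of the 24 were lower, where 7.01% of all genes were. The 23 other than Ttr all rose with Ttr, where 1.53% of all genes did, and had a median slope of 0.685. Their summed level was 431 to 4347 CPM in controls and 279 to 1421 CPM in SAP97-cKO, a wider spread than that of the members. Of 20 meningeal fibroblast genes, 7 were lower in SAP97-cKO past the threshold, which 0.295% of all genes passed in either direction. Among the 7 were Ogn (-1.32, SE 0.21, adjusted p = 0.143), Col1a2 (-1.01, SE 0.18, adjusted p = 0.190) and Slc22a6 (-1.58, SE 0.30, adjusted p = 0.201). The summed level of the 20 was 447 to 687 CPM in controls and 319 to 559 CPM in SAP97-cKO. Of the 20, 4 rose with Ttr, where 1.53% of all genes did. No gene of either list was at 0 in all libraries. The part of these tissues in the fold changes of the motile cilia genes was not tested.

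Of the 10 oligodendrocyte genes all were below 0, with a median log2 fold change of -0.51, and 0 rose with Ttr. At an unadjusted p under 0.05, 7 of the 10 were lower, where 7.01% of all genes were. For 10 neuronal genes the median was 0.10, for 10 genes of hippocampal subfields 0.09, for 10 genes of tissue beside the hippocampus 0.00, for 10 astrocyte genes 0.03, for 10 microglial genes -0.02 and for 10 endothelial genes -0.18. At an unadjusted p under 0.05, 3 neuronal, 2 astrocyte and 1 subfield gene were higher, where 4.73% of all genes were. Beside the hippocampus, 1 gene was higher and 1 lower at that p. None of the microglial or endothelial genes reached it, though all 10 endothelial genes were below 0. No gene of these lists was called between genotypes, and with Ttr 1 gene beside the hippocampus (Prkcd) and 1 endothelial gene (Kdr) rose.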

How the data were processed

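Hippocampal RNA from 8 male mice, 4 control and 4 SAP97-cKO, was sequenced with a TruSeq RNA kit, and groups and replicate numbers came from the sample labels. The deposited values were whole-number read counts per gene, taken after the reads had been resampled. The authors had used STAR 2.5.3a for alignment to mouse build mm10 (GRCm38.p5), by their methods and the submitters' processing notes, and had resampled every library to a like total with PORT, which also removes ribosomal and mitochondrial reads, so totals say nothing of the original depth; mitochondrial genes still held 3.73 to 4.93% of the counts. Fold changes, p-values and q-values from the comparison of the authors were in the same table and were not used. Each mouse was 1 library, and the replicates of a group were separate animals.

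Counts were tested with edgeR 4.0.16 (quasi-likelihood) on TMM-scaled libraries, for 16251 genes that filterByExpr kept (minimum count 10 and minimum total 15). P-values were adjusted over all genes tested by the Benjamini-Hochberg method, with a threshold of 0.25. The Ttr slope was the coefficient of centred log2 CPM of Ttr (0.5 added to each count) in a model with genotype, for 16250 genes. A 2-sided exact permutation test over 70 assignments was used for Ttr and Foxj1. Limma 3.58.1 (voom), DESeq2 1.42.0, other scalings, other filters, a replicate block and leaving out each library were tried as alternatives. Scripts were tested on simulated data. The members, the role groups and the lists of other cilia and cell type genes were chosen with earlier results of these data known. Genes named with values in every library were Dlg1, Ttr, Foxj1, members past the threshold and the member with the most reads in each role group; others were named by an unadjusted p under 0.05, or the 3 smallest p of a list. Mlf1 and Rsph1 were given in every library after their values were seen, and other members were named with their fold changes or ranges for completeness. Exon lengths came from GENCODE M21. Intervals and SEs cover these 8 animals only.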

Additional observations from a re-analysis of the deposited data

Results flagged for a closer look

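Among the controls, Dnah3, an inner arm dynein heavy chain, was at 1.974 CPM in control 3 and at 0.428 to 0.533 CPM in the other 3 controls. The gap took up 0.932 of the range of the group, above Dixon's critical value for 4 samples. Of 82 groups of 4 libraries examined in this way, 1 was singled out, and chance singles out about 1 in 20. Dnah3 had the fewest reads of the 40 members, 225 over all libraries, and the protein-coding gene Lyrm1 on the other strand covers 10.5% of its exon length.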

How the results depend on the processing

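Of the 40 members, 33 had a genotype fold change below 0, and 26 to 35 had one under the alternatives: 26 without control 3, 27 with Ttr in the model, 29 without control 2 and 31 or more otherwise. The median log2 fold change of the members was between -0.42 and -0.10 with any 1 library left out and between -0.40 and -0.13 under the others. Between genotypes, the genes past the threshold numbered 1033 in DESeq2, 95 without scaling, 104 without a filter, 256 with a replicate block, 0 and 2 without the lowest-Ttr and the highest-Ttr library of each genotype (alternatives chosen after seeing the data), 0 at an FDR of 0.05, and 0 to 1675 with 1 library left out. Members past it were 4 in DESeq2, 3 with the block and 0 to 12 with 1 library left out. For Ttr, 264 of 16250 genes passed the threshold in the main fit, 480 in DESeq2 and 309 with genotype left out of the model. The count was 316 of 25833 without a filter and 273 of 16227 with the choroid plexus list in place of Ttr. It was 169 with at least 10 counts in every library, 0 with the block and 81 at an FDR of 0.05. Without the lowest-Ttr and highest-Ttr library of each genotype it was 113 and 69, and with 1 library left out 88 to 304. Members were 11 in DESeq2, 5 without a filter, 6 with genotype left out of the model, 6 with the choroid plexus list in place of Ttr, 0 with the block, 1 and 0 without the lowest-Ttr and highest-Ttr libraries, 0 at an FDR of 0.05, and 0 to 9 with 1 library left out. The median slope was 0.279 without the lowest-Ttr libraries. The cause of these changes was not tested, except that fewer libraries or another threshold enter by construction.

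The labels and methods tie the replicate numbers to no common litter, batch or day, and whether they pair the animals was not settled by the data: deviations of same-numbered libraries correlated at -0.058, 0.194, 0.097 and 0.257, and for 3 of the 4 numbers the correlation was highest with the same number. Ttr followed the same order of numbers in both genotypes and was lower in SAP97-cKO at each number, so in the fit with the replicate block its coefficient rests on what the numbers leave, and the median slope of the members was 1.27. With the replicate block, Mlf1 (adjusted p = 0.140), Rsph1 (0.193), Cfap126 (0.187) and Ttr itself (log2 fold change -1.33, adjusted p = 0.00710) passed the threshold between genotypes, and Dnah6, Dnah11 and Dnah12 no longer passed for Ttr.

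Values near 0 changed sign. With 1 library left out, log2 fold changes ranged from -0.0225 to 0.2885 for Dnah9 and from -0.1193 to 0.0019 for Rsph9; slopes ranged from -0.0037 to 0.0802 for Dlg1, -0.0256 to 0.0582 for Rfx3, -0.0381 to 0.0996 for Dnah9, -0.0055 to 0.0467 for Dnah1 and -0.1051 to 0.0369 for Drc1. Without the lowest-Ttr libraries the fold change of Dnah9 was -0.0195, and slopes were -0.0995 for Rfx3, -0.1161 for Dnah9 and 0.2612 for Drc1. Without the highest-Ttr libraries the fold change of Drc1 was -0.002, and slopes were -0.0143 for Dlg1 and -0.0005 for Rsph9. With the block, slopes were -0.7775 for Dlg1 and -0.0998 for Stoml3. Dnah3, with 225 reads over all libraries and the high value in control 3, had the widest standard error of the members for genotype (0.56).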
